A study of Sus scrofa with 16 samples.

Results

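The genes described here are the potassium and calcium channel subunits of the count table: every row whose symbol begins with KCN or CACN, plus ABCC8 and ABCC9, which encode the sulfonylurea receptor subunits of ATP-sensitive potassium channels. This rule, which uses symbols only, gave 121 of 29552 rows. They were followed in pig aortic valve interstitial cells (the resident fibroblasts of valve leaflets) from animals of 5 to 6 months. The 4 groups were male cells on a PEG-norbornene hydrogel of about 5.8 kPa (male gel), male cells on tissue culture plastic (male plastic), and female cells on the same surfaces (female gel, female plastic), each with 4 biological replicates. All 16 cultures spent 48 hours on their surface in medium containing 1% fetal bovine serum, penicillin, streptomycin and amphotericin B. The submitters took cells on gel for quiescent fibroblasts and cells on plastic for myofibroblasts. The labels do not say whether a replicate was 1 animal or a pool.

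Potassium channels let potassium leave the cell and hold the membrane potential negative, and most of them are built from pore-forming subunits that assemble around 1 central pore. Voltage-gated calcium channels open when the membrane depolarizes and admit calcium, which drives contraction in smooth muscle and sets off calcium-dependent signals in other cells. Accessory subunits carry no pore of their own and set how many channels reach the surface and how they open. In fibroblasts and smooth muscle cells, calcium-activated potassium channels and inward rectifiers are known to counter depolarization, and L-type and T-type calcium channels are known routes of calcium entry.

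On plastic some channel genes were higher and others lower than on gel, with no shift of the whole class to one side. The voltage-gated potassium channel genes KCNQ5, KCNH2 and KCNB2, the inward rectifier KCNJ4 and the accessory subunit KCNAB1 were higher on plastic in both sexes. The inward rectifier KCNJ2, the sulfonylurea receptor ABCC9, the calcium-activated channel KCNN4 and the accessory subunit KCNAB2 were lower in both. Of these calls, that of KCNN4 in male cells was lost without any 1 of 7 libraries. In female cells the KCNJ4 call was lost without either of 2 libraries and the KCNH2 call without 1. Among calcium channel genes the T-type pore gene CACNA1H was called higher in male cells, a call lost without any 1 of 8 libraries, and the accessory gene CACNA2D1 higher in female cells. With the replicate number as a block, CACNA1H, CACNA2D1 and the L-type pore gene CACNA1C were called higher in both sexes and CACNG4 lower in male cells. The two-pore-domain potassium channels and the calcium channel beta subunits had no called member. These are bulk libraries, in which fewer cells of a type and less RNA per cell cannot be told apart.

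Most of the 121 members were barely present in the libraries. No library held a read of 11 members, and another 54 had reads but too few for filterByExpr, the count filter applied by group, so that 65 were not tested. Of the 56 tested members, 20 had a mean under 1 CPM (reads of a gene per 1 M reads, M standing for 1e+06, scaled by TMM, a library scaling factor) over the 16 libraries. The other 36 had a mean of at least 1 CPM, are called well measured here, and include 13 with at least 10 CPM. Near that limit, KCNB2 (1.09 CPM) lay just inside and KCNG1 (0.923 CPM) just outside. The well measured share was 4 of 8 calcium- or sodium-activated potassium channel genes, 9 of 39 voltage-gated potassium channel genes, 5 of 17 potassium accessory genes, 3 of 15 two-pore-domain genes and 2 of 15 inward rectifier genes. On the calcium side it was 5 of 10 pore genes and 7 of 15 accessory genes. CPM are not divided by gene length, so levels are compared between libraries for 1 gene and not between genes.

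**Figure D1:**
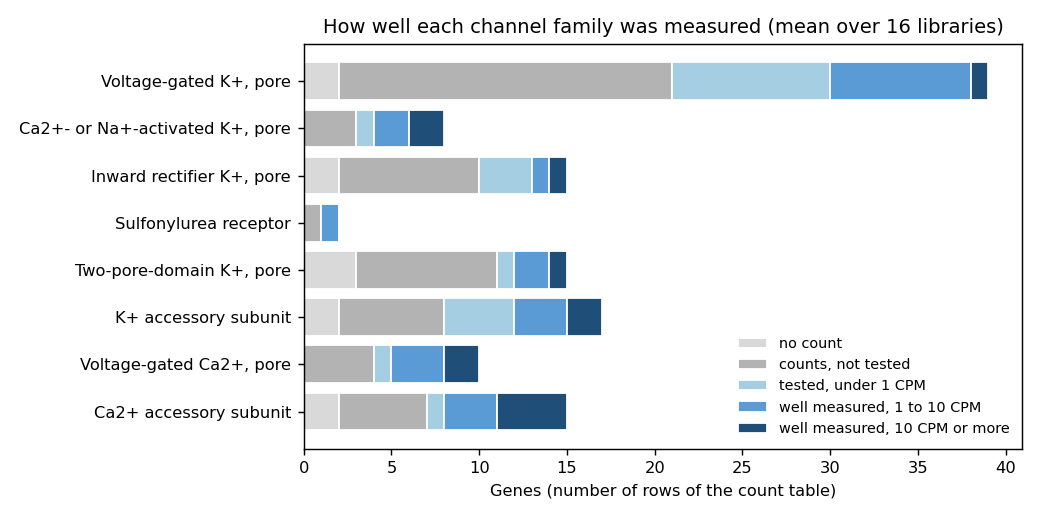
Number of genes (x axis) in each channel family (y axis), split by how well they were measured: no count, counts but not tested, tested with a mean under 1 CPM over 16 libraries, 1 to 10 CPM, and 10 CPM or more. Grey segments, the 65 genes not tested, make up more than the blue ones in the voltage-gated, inward rectifier and two-pore-domain potassium families.

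Total counts of the 16 libraries ran from 16.9 to 27.44 M, and channel members took 0.0597% to 0.069% of them. Male gel 2 was the shallowest library (16.9 M) and had reads for 54 members, against 70 to 87 in the others. In the marker lists, fibroblast genes summed to between 38961 and 54814 CPM in every library, and cardiac and skeletal muscle genes to at most 3.93 CPM. COL1A1, COL1A2, COL3A1 and VIM made up most of the fibroblast sum. PDGFRA (log2 change -2.44 in male cells), LUM, DCN and FAP were called lower on plastic in both sexes. Of the 10 fibroblast genes, 3 were called higher and 4 lower in male cells, where 12.9% and 12.9% of all tested genes were. In female cells 1 was higher and 4 were lower, beside 12.7% and 11.3%. The neuron and Schwann cell genes, whose source cells are rich in many of these channels, summed to 3.94 to 8 CPM. Among the smooth muscle and pericyte genes 8 of 10 were tested and all 8 were called higher on plastic in both sexes, their sum moving from 561 to 848 CPM in male gel to 2506 to 3128 CPM in male plastic. The pericyte marker RGS5 was near 0, with a mean of 0.0524 CPM. The summed endothelial markers were highest in female plastic 1 (564 CPM), female plastic 4 (435 CPM) and male plastic 4 (327 CPM), against 195 to 272 CPM in the other plastic libraries. On gel they were highest in female gel 4 (274 CPM), male gel 4 (261 CPM) and female gel 1 (242 CPM), against 151 to 204 CPM elsewhere. ERG alone gave 92.8 to 252 CPM of this sum per library. Of the 10 endothelial genes, 1 (ROBO4) was called higher in male cells, beside 12.9% of all tested genes. In female cells 2 (ERG and ROBO4) were called higher, beside 12.7%, and 0 were lower in either sex. What part these cell types have in the channel results was not tested.

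A call here is a Benjamini-Hochberg adjusted p under 0.05 by the quasi-likelihood test of edgeR over all tested genes. Surface calls came at a share near that of all tested genes. In male cells 15 of 56 tested members were called (26.8%), 9 higher and 6 lower, where 25.8% of all 14530 tested genes were called, 12.9% higher and 12.9% lower. In female cells 15 of 56 were called (26.8%), 7 higher and 8 lower, where the share of all tested genes was 23.9%, with 12.7% higher and 11.3% lower. Among the 36 well measured members 12 were called in each sex (33.3%), against 27.8% in male and 26% in female cells for all tested genes with a mean of at least 1 CPM. The median log2 change of the tested members was -0.07 in male and 0.02 in female cells, beside -0.03 and -0.04 over all tested genes, while their median absolute change was 0.54 and 0.60, beside 0.31 and 0.29. Called in both sexes were 12 tested members, 6 higher (where 9.24% of tested genes were) and 6 lower (where 7.27% were), and no member was called in opposite directions. Surfaces did not overlap for 14 members in male and 12 in female cells (25% and 21.4%), beside 28.9% and 27.7% of all tested genes. The filter acts by group, so a rarely read gene could enter through the surface on which it was high.

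Of the voltage-gated potassium channel genes, 9 were well measured, and 5 were called higher on plastic in male cells and 4 in female cells. KCNQ5 (chromosome 1, 52435332 to 52939705 on Sscrofa11.1), a slowly activating channel found in smooth muscle and brain, rose by a small amount and with little spread. It went from 40 ± 5.91 to 52.4 ± 2.02 CPM (mean ± SD, n = 4) in male cells, with gel values of 36.2, 34.5, 41.6 and 47.6 and plastic values of 52, 49.8, 53.3 and 54.5 CPM. Female cells went from 41, 36, 37.7 and 43.6 CPM on gel to 60.9, 50, 56.4 and 62.1 CPM on plastic. The groups did not overlap in either sex. The log2 changes of KCNQ5 were 0.39 (SE 0.11, adjusted p = 0.0132) and 0.54 (SE 0.11, adjusted p = 0.00152). KCNQ1, of the same family and best known from heart, had a mean of 0.344 CPM and was not called, and KCNQ3 was not tested.

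KCNH2 (chromosome 18, 6242826 to 6279154), known as hERG, the channel of the rapid delayed rectifier current of the heart, was low on gel. Male gel libraries had 1.26, 0.508, 1.23 and 0.359 CPM and male plastic libraries 4.31, 6.87, 4.97 and 3.89 CPM. In female cells 0.18, 1.3, 1.43 and 0.688 CPM on gel stood against 1.29, 6.17, 4.44 and 2.28 CPM on plastic, where female plastic 1 lay among the gel values. The log2 change was 2.54 (SE 0.56, adjusted p = 0.00312) in male and 1.97 (SE 0.55, adjusted p = 0.0152) in female cells. The female call of KCNH2 was lost without female plastic 2 (1.57, adjusted p = 0.0612).

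KCNB2 (chromosome 4, 62877838 to 63306314) encodes a delayed rectifier channel that repolarizes excitable cells. It had 0.246, 0.339, 0.335 and 0.0897 CPM in male gel and 1.16, 2.62, 1.69 and 0.888 CPM in male plastic, on 2 to 60 reads per male library. Female gel had 0.505, 0.197, 0.374 and 0.109 CPM and female plastic 3.73, 2.1, 2.02 and 1.05 CPM. Every plastic library of KCNB2 lay above the gel libraries of its sex, and the log2 changes were 2.64 (SE 0.54, adjusted p = 0.00177) and 2.88 (SE 0.52, adjusted p = 0.000683).

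KCND1 (chromosome X, 43032355 to 43043310), the pore subunit of a transient, quickly inactivating current, was the 1 well measured voltage-gated potassium gene called lower. Female gel had 3.78, 5, 4.45 and 2.65 CPM and female plastic 2.49, 2.81, 2.11 and 2.19 CPM. The female log2 change was -0.73 (SE 0.24, adjusted p = 0.0405), with 1 gel library among the plastic values. Male cells had 5.19, 4.12, 5.25 and 2.83 CPM on gel and 2.61, 3.81, 2.44 and 2.58 CPM on plastic, a change of -0.61 (SE 0.24, adjusted p = 0.0781) that was not called. The female call was lost without any 1 of female gel 1, 2 and 3 and female plastic 1, 3 and 4 (adjusted p = 0.061 to 0.129). It was also lost by limma-voom (adjusted p = 0.0645), without the filter (adjusted p = 0.0625) and in a fit of the 8 female libraries (adjusted p = 0.0514). KCND1 passed in male cells without male gel 4 (-0.77, adjusted p = 0.028) or male plastic 2 (-0.78, adjusted p = 0.0451).

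Among the well measured genes of this class, 3 were not called in either sex. KCNA6, which encodes a channel of the shaker type found in neurons, had a log2 change of -0.14 (SE 0.47) in male and -0.11 (SE 0.47) in female cells. KCNA7 had 0.24 (SE 0.39) and -0.01 (SE 0.39). KCNA3, the channel best known from T lymphocytes, had 0.05 (SE 0.37) and 0.41 (SE 0.37).

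**Figure D2:**
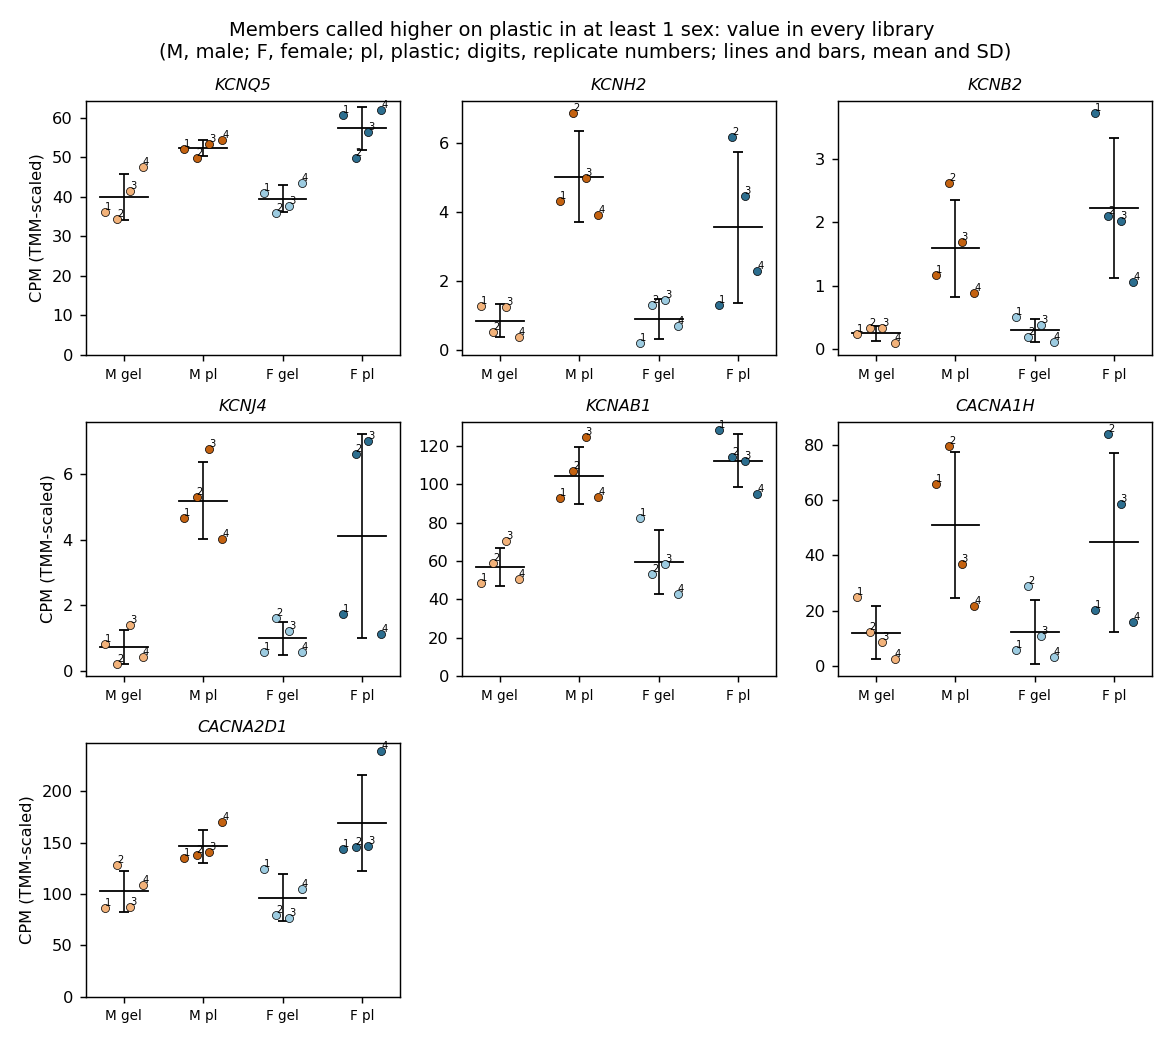
TMM-scaled CPM (y axis) in the 4 groups (x axis: gel and plastic, male then female) of 7 well measured members called higher on plastic in at least 1 sex. Points are single libraries numbered by replicate and black lines and bars are mean and SD (n = 4). KCNB2, KCNQ5, KCNAB1 and CACNA2D1 show no overlap between surfaces in either sex, and in CACNA1H the replicates male 4, female 1 and female 4 are low on both surfaces.

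The accessory subunits of voltage-gated potassium channels were represented by 5 well measured genes, and their 2 called members moved in opposite directions. KCNAB1 and KCNAB2 encode cytoplasmic beta subunits that attach to shaker-type channels and change their inactivation and surface number. KCNAB1 (chromosome 13, 95981820 to 96375089) had 48.4, 58.9, 70.4 and 50.6 CPM in male gel and 92.6, 107, 125 and 93.5 CPM in male plastic. Female gel had 82.4, 53.4, 58.6 and 42.9 CPM and female plastic 128, 114, 112 and 94.8 CPM. Each plastic library of KCNAB1 lay above all gel libraries of its sex, and the log2 changes were 0.87 (SE 0.18, adjusted p = 0.00153) and 0.92 (SE 0.18, adjusted p = 0.00103). The span of KCNAB1 overlaps the model of SSR3, so without a known strand setting reads where they overlap cannot be told apart.

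KCNAB2 (chromosome 6, 66928374 to 67016846) had 9.19, 6.89, 9.24 and 8.75 CPM in male gel against 4.84, 4.99, 4.04 and 4.44 CPM in male plastic. The female values were 8.29, 8.82, 8.69 and 10.2 CPM on gel and 5.06, 5.57, 3.65 and 5.23 CPM on plastic. Its gel libraries all lay above the plastic libraries of their sex, and the log2 changes were -0.90 (SE 0.15, adjusted p = 0.000441) and -0.88 (SE 0.15, adjusted p = 0.000515). The SD within a KCNAB2 group was at most 1.11 CPM.

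Among the remaining accessory genes, KCNE1, a single-span subunit that slows KCNQ1 channels, had log2 changes of 0.11 (SE 0.37) in male and -0.13 (SE 0.37) in female cells. KCNE4, a subunit that inhibits channels of the KCNQ1 and shaker types, had -0.11 (SE 0.48) and 0.06 (SE 0.47). KCNRG, a soluble protein that interferes with the assembly of voltage-gated potassium channels, had -0.10 (SE 0.19) in male and 0.49 (SE 0.19, adjusted p = 0.072) in female cells. With the replicate as a block, the female KCNRG change was called (0.49, adjusted p = 0.0197), as it was by DESeq2 (adjusted p = 0.0374) and without male gel 2 (adjusted p = 0.0355) or female gel 1 (0.62, adjusted p = 0.0327). KCNRG lies across TRIM13 in the annotation, so part of its reads may not be its own.

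The inward rectifiers pass potassium best near the resting potential and hold cells there. KCNJ2 (chromosome 12, 10351959 to 10380631) is the main strong inward rectifier of heart and vessel wall, and it fell. Male gel libraries had 64.9, 63.8, 43 and 78.4 CPM and male plastic libraries 16.5, 14.3, 14.4 and 20.3 CPM. In female cells 57.7, 47.8, 57.2 and 76.4 CPM on gel stood against 30.8, 18.2, 16.5 and 29 CPM on plastic. The surfaces did not overlap in either sex, and female plastic 1 and 4 were the highest plastic libraries. The log2 change of KCNJ2 was -1.93 (SE 0.22, adjusted p = 1.28e-05) in male and -1.34 (SE 0.22, adjusted p = 0.00031) in female cells. The female minus male difference of these changes was 0.59 (SE 0.31, unadjusted p = 0.0713) and was not called by edgeR.

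KCNJ4 (chromosome 5, 9526399 to 9549290), a strong inward rectifier best known from brain and heart, went the other way. Male gel had 0.842, 0.226, 1.42 and 0.449 CPM and male plastic 4.64, 5.29, 6.75 and 4.01 CPM. Female gel had 0.577, 1.61, 1.22 and 0.58 CPM, while female plastic had 6.59 and 6.99 CPM in replicates 2 and 3 but 1.73 and 1.14 CPM in replicates 1 and 4. The male surfaces did not overlap and the female surfaces did. The log2 changes of KCNJ4 were 2.77 (SE 0.59, adjusted p = 0.00248) and 2.04 (SE 0.57, adjusted p = 0.0156). The female call was lost without female plastic 2 (adjusted p = 0.0539) or 3 (adjusted p = 0.0584) and by limma-voom (adjusted p = 0.0576).

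ABCC9 and KCNJ8 encode the sulfonylurea receptor and the pore of the ATP-sensitive potassium channel of vessel wall cells, and both were lower on plastic. The genes are neighbours on chromosome 5, ABCC9 at 51536531 to 51673583 and KCNJ8 at 51695927 to 51704402, with 22343 bp between them. ABCC9 had 10.5, 11.6, 10.2 and 2.96 CPM in male gel, 3.34, 2.14, 2.93 and 1.27 CPM in male plastic, 6.2, 8.66, 6.38 and 5.25 CPM in female gel and 1.42, 3.27, 1.14 and 1.39 CPM in female plastic. Male gel 4 lay within the male plastic range, whereas female surfaces did not overlap. Its log2 changes were -1.87 (SE 0.41, adjusted p = 0.00292) in male and -1.88 (SE 0.41, adjusted p = 0.0033) in female cells.

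KCNJ8 was less well measured, with a mean of 0.89 CPM and 1 to 56 reads per library. Male gel libraries held 56, 27, 40 and 11 KCNJ8 reads and male plastic libraries 10, 12, 11 and 1. Female gel libraries held 45, 42, 48 and 29, and female plastic libraries 7, 12, 7 and 2. As with ABCC9, male gel 4 was the low gel library. The log2 changes of KCNJ8 were -1.83 (SE 0.56, adjusted p = 0.0243) in male and -2.23 (SE 0.57, adjusted p = 0.00901) in female cells, and the male call ended when male gel 1 (adjusted p = 0.0667) or male plastic 4 (adjusted p = 0.0533) was left out or in a fit of the 8 male libraries (adjusted p = 0.0557). The counterparts of the pancreatic channel were close to absent: ABCC8 had 1 read in 1 library, and KCNJ11 at most 16 reads in a library.

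**Figure D3:**
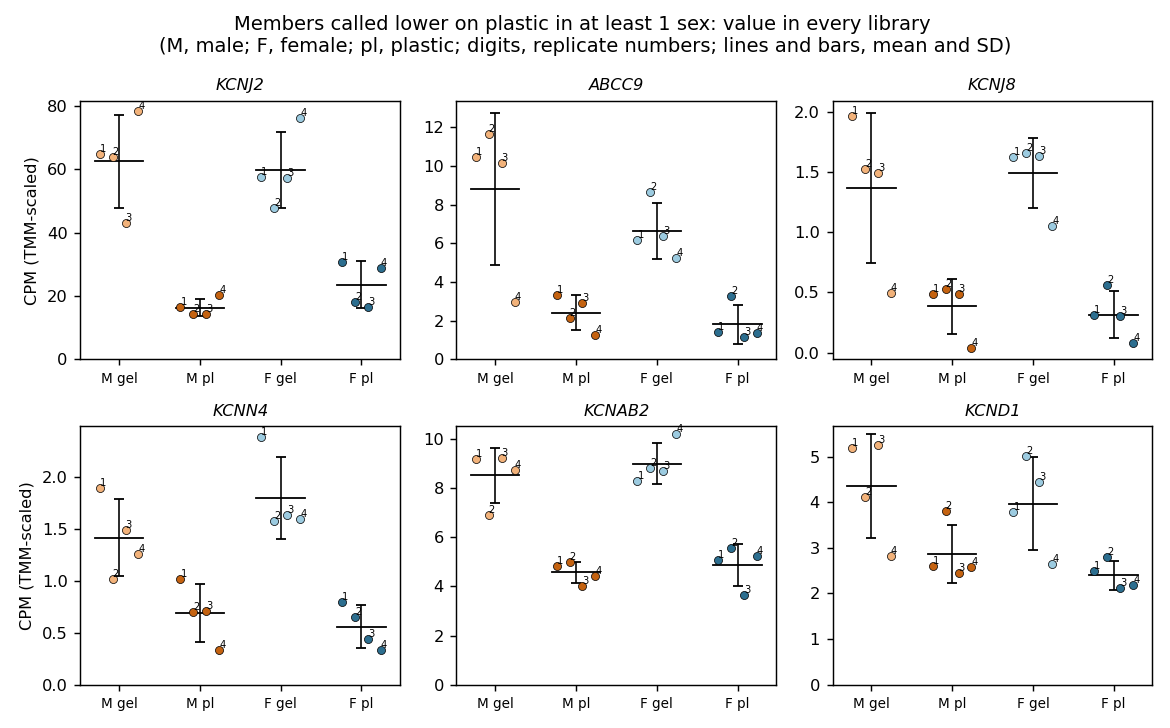
TMM-scaled CPM (y axis) in the 4 groups (x axis: gel and plastic, male then female) of the 5 well measured members called lower on plastic in at least 1 sex, and of KCNJ8. Points are single libraries numbered by replicate and black lines and bars are mean and SD (n = 4). KCNJ2 and KCNAB2 separate the surfaces in both sexes, while male gel 4 of ABCC9 and KCNJ8 lies at the level of plastic.

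Calcium- or sodium-activated potassium channels had 4 well measured genes, of which KCNN4 was called. KCNN4 (chromosome 6, 50580016 to 50593518) is the intermediate-conductance channel that opens when calmodulin binds calcium and is known from fibroblasts, endothelium and lymphocytes. Female gel had 2.38, 1.57, 1.63 and 1.59 CPM and female plastic 0.799, 0.655, 0.44 and 0.337 CPM, and the female log2 change was -1.68 (SE 0.36, adjusted p = 0.00259). Male gel had 1.89, 1.02, 1.49 and 1.26 CPM and male plastic 1.02, 0.7, 0.71 and 0.338 CPM, a change of -1.04 (SE 0.35, adjusted p = 0.0399). Surfaces did not overlap in either sex, although male gel 2 and male plastic 1 were nearly level. The male KCNN4 call ended when any 1 of male gel 1, 3 and 4, male plastic 2, 3 and 4 and female gel 3 was left out (adjusted p = 0.05 to 0.117). It also ended without the filter (adjusted p = 0.0669) and in a fit of the 8 male libraries (adjusted p = 0.0794).

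KCNMA1, the large-conductance calcium- and voltage-activated (BK) channel of smooth muscle, was not called. Its means were 37.3 ± 12.4 CPM in male gel, 27.2 ± 10.7 in male plastic, 48.2 ± 20.8 in female gel and 34.2 ± 8.21 in female plastic (SD, n = 4). The log2 changes of KCNMA1 were -0.46 (SE 0.32, adjusted p = 0.312) and -0.49 (SE 0.31, adjusted p = 0.282). Its smooth muscle beta subunit KCNMB1 was not tested, with at most 17 reads in a library. KCNMB4, the beta subunit typical of neurons, had a male change of 1.39 (SE 0.80, adjusted p = 0.217) that was called with the replicate as a block (1.74, adjusted p = 0.0482).

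KCNT2, a sodium-activated channel, had a log2 change of -0.61 (SE 0.25, adjusted p = 0.0858) in male and 0.07 (SE 0.25) in female cells. The male change of KCNT2 was called with the replicate as a block (-0.55, adjusted p = 0.0192) and without male gel 4 (-0.81, adjusted p = 0.0157). KCNN3, a small-conductance calcium-activated channel, was high in the same cultures on both surfaces. It had 3.81 CPM in male gel 4, 8.97 in female gel 1 and 3.95 in female gel 4 against 0.282 to 1.65 CPM in the other gel libraries. On plastic it had 3, 8.13 and 4.94 CPM in the same 3 replicates against 0.132 to 1.17 CPM in the others. Its surface change was -0.14 (SE 0.90) in male and -0.11 (SE 0.85) in female cells. These replicates also had the highest summed endothelial markers on their surface, and small-conductance channels of this kind are known from endothelium. Single markers differed: CDH5, PECAM1, TIE1 and TEK were highest in these replicates too, but ERG, EMCN, ESAM, KDR, ROBO4 and VWF were not in all of them. On gel ERG was highest in male gel 2 (140.4 CPM). On plastic ERG was higher in male plastic 3 (166.1 CPM) than in male plastic 4 (150.5 CPM). ROBO4 was the lowest of its group in female plastic 4 (0.0844 CPM). VWF was the lowest of its group in male gel 4 (0.135 CPM), male plastic 4 (0.254), female gel 4 (0.217) and female plastic 4 (0.253). The part of endothelial cells in the KCNN3 values was not tested.

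Of 15 two-pore-domain genes, which encode background leak channels, 3 were well measured and none was called by edgeR. KCNK12 had log2 changes of 0.17 (SE 0.22) in male and 0.06 (SE 0.22) in female cells, KCNK6 -0.10 (SE 0.27) and 0.01 (SE 0.27), and KCNK1 -0.31 (SE 0.32) and -0.58 (SE 0.32). The 1 other tested gene of the family, KCNK7, had a mean of 0.882 CPM and log2 changes of 0.97 (SE 0.38, adjusted p = 0.0759) and 0.94 (SE 0.38, adjusted p = 0.0904). KCNK7 was called in male cells without male gel 1 (1.29, adjusted p = 0.034).

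Among calcium channel pore genes 5 were well measured, and CACNA1H had the largest change. CACNA1H (chromosome 3, 40637420 to 40694616) encodes a T-type channel, which opens at weak depolarization. Male gel had 24.9, 12.4, 8.87 and 2.38 CPM and male plastic 65.9, 79.8, 37 and 21.9 CPM. Female gel had 5.87, 29, 11 and 3.12 CPM and female plastic 20.4, 84.1, 58.5 and 16.1 CPM. The surfaces overlapped in both sexes, because replicates differed about as much as surfaces: male 4, female 1 and female 4 were low on gel and on plastic. Each replicate number was nevertheless higher on plastic than on gel, in 8 of 8 pairs. The log2 change of CACNA1H was 2.07 (SE 0.72, adjusted p = 0.0448) in male and 1.87 (SE 0.72, adjusted p = 0.0699) in female cells. With the replicate as a block the male change was 2.27 (SE 0.25, adjusted p = 3.33e-05). The female change was called with the block too (2.01, SE 0.24, adjusted p = 8.52e-05). In the fit with no block, the male call ended when any 1 of male gel 2, 3 and 4, male plastic 1, 2 and 3, female gel 3 and female plastic 3 was left out (adjusted p = 0.0527 to 0.115), and the female change passed without female gel 2 (2.74, adjusted p = 0.0169) or male gel 4 (adjusted p = 0.0489).

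CACNA1C (chromosome 5, 69016954 to 69448428), the pore of the L-type channel of heart and smooth muscle, showed the same arrangement at a smaller size. Male gel had 46.2, 24.8, 35.3 and 19.8 CPM and male plastic 43.5, 56.5, 54.6 and 36.1 CPM. Female gel had 19, 41, 39.2 and 23.6 CPM and female plastic 28.2, 53.1, 54.9 and 38.4 CPM. Male 4, female 1 and female 4 were again the lowest of their surface, and male replicate 1 was the only number lower on plastic than on gel. The log2 changes of 0.59 (SE 0.29, adjusted p = 0.145) and 0.51 (SE 0.29, adjusted p = 0.225) were not called, and with the replicate as a block both were (0.65, adjusted p = 0.0116, and 0.53, adjusted p = 0.03). The smooth muscle myosin gene MYH11 was also lowest in these replicates on both surfaces, with 405 CPM in male plastic 4, 295 in female plastic 1 and 361 in female plastic 4 against 719 to 937 CPM in the other plastic libraries. What part smooth muscle genes have in these channel values was not tested.

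The remaining calcium channel pores were not called in either sex. CACNA1G, a second T-type gene, had log2 changes of -0.28 (SE 0.47) in male and -0.74 (SE 0.48) in female cells. CACNA1A, the pore of the P/Q-type channel of nerve endings, had -0.63 (SE 0.33) and 0.01 (SE 0.32), and CACNA1D, an L-type channel of the sinus node, 0.03 (SE 0.54) and -0.72 (SE 0.54).

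Of the 7 well measured calcium channel accessory genes, CACNA2D1 was called, in female cells. CACNA2D1 (chromosome 9, 97781057 to 98265925) encodes an extracellular alpha2-delta subunit that brings channels to the surface and binds gabapentin. Female gel had 125, 79.7, 76.2 and 105 CPM and female plastic 144, 146, 147 and 239 CPM, and the female log2 change was 0.81 (SE 0.19, adjusted p = 0.0053). Male gel had 86.7, 128, 87.2 and 109 CPM and male plastic 135, 138, 141 and 170 CPM, a change of 0.51 (SE 0.19, adjusted p = 0.0589). All plastic libraries lay above the gel libraries of their sex in both cases. The male change of CACNA2D1 was called with the replicate as a block (0.52, adjusted p = 0.0191), by DESeq2 (adjusted p = 0.0363), by limma-voom (adjusted p = 0.0491) and without male gel 2 (0.63, adjusted p = 0.0288), female gel 1 (adjusted p = 0.0467) or female plastic 4 (adjusted p = 0.0251). The difference of the 2 changes had an unadjusted p = 0.284.

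CACNB1, CACNB2 and CACNB3 encode cytoplasmic beta subunits, which L-type calcium channel pores need to reach the membrane. CACNB3 stayed within a narrow range, at 38.2 ± 6.19, 42.2 ± 1.3, 41.2 ± 4.49 and 41.8 ± 2.55 CPM (SD, n = 4) in the male gel and plastic groups and the female gel and plastic groups in turn. Its log2 changes were 0.14 (SE 0.11) and 0.02 (SE 0.11). CACNB1 had -0.20 (SE 0.19) and -0.15 (SE 0.19), and CACNB2 0.60 (SE 0.32) and 0.28 (SE 0.31). CACNA2D4, a second alpha2-delta gene, had 0.08 (SE 0.10) and -0.12 (SE 0.10), but its span overlaps ADIPOR2 and LRTM2.

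CACNG4 and CACNG7 belong to the gamma subunits, which also accompany glutamate receptors in the brain. CACNG7 had log2 changes of -0.07 (SE 0.20) in male and 0.06 (SE 0.20) in female cells. CACNG4 had 4.28, 6.72, 7.68 and 8.57 CPM in male gel and 2.27, 3.41, 3.37 and 5.58 CPM in male plastic, a change of -0.89 (SE 0.33, adjusted p = 0.0598). Within each male number CACNG4 was lower on plastic, and with the replicate as a block the change was called (-0.92, adjusted p = 0.00802), as it was by DESeq2 (adjusted p = 0.036) and without male gel 1 (adjusted p = 0.0331), male plastic 4 (adjusted p = 0.0266) or female plastic 4 (adjusted p = 0.0215). The female change was -0.42 (SE 0.33) with all libraries and -0.88 (adjusted p = 0.0472) without female plastic 4.

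**Figure D4:**
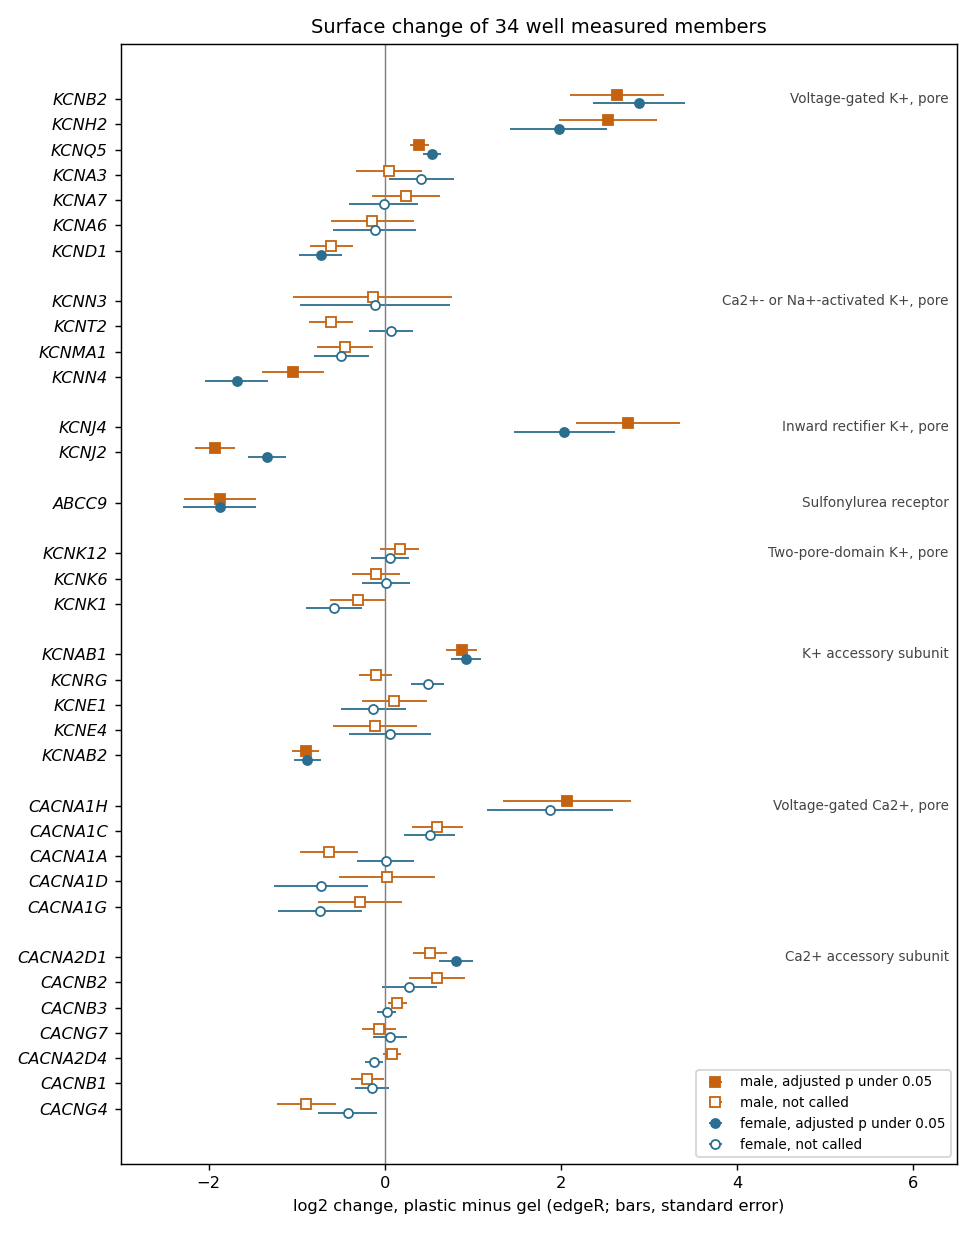
Log2 change on plastic against gel (x axis, edgeR, bars are standard errors) of 34 well measured members (y axis, by channel family) in male (squares) and female cells (circles), filled where the adjusted p is under 0.05. Filled symbols lie on both sides of 0, with KCNB2 at 2.88 in female cells at one end and KCNJ2 at -1.93 in male cells at the other.

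The mean of 1 CPM is taken over both surfaces, so a member can count as well measured through the surface on which it was high. KCNB2 did so, with at most 0.505 CPM in any gel library. KCNJ4 did too, with gel means of 0.733 CPM in male and 0.998 CPM in female cells. So did KCNH2, whose gel libraries had 0.18 to 1.43 CPM. KCNN4 did so through gel, with plastic means of 0.691 CPM in male and 0.558 CPM in female cells. The filter by group bears most on the tested members under 1 CPM, of which 4 were called in some comparison of surfaces. Besides KCNJ8, KCNC2, a fast delayed rectifier gene of neurons, had 33, 29, 37 and 18 reads in male gel and 3, 13, 11 and 4 in male plastic. Its log2 change was -1.84 (SE 0.57, adjusted p = 0.0254) in male cells and -1.56 (SE 0.55, adjusted p = 0.0498) in female cells. The female KCNC2 call was lost without any 1 of 13 libraries, all but male gel 2, female gel 4 and female plastic 1 (adjusted p = 0.0507 to 0.167), and the male call ended without male gel 2 or 3 or male plastic 1 or 4 (adjusted p = 0.0505 to 0.0781). The female KCNC2 call was also lost without the filter (adjusted p = 0.0625) and with RLE scaling (adjusted p = 0.0537). It was lost too by limma-voom (adjusted p = 0.0967) and in a fit of the 8 female libraries (adjusted p = 0.077). KCNH7, of the same subfamily as KCNH2, fell in female cells from 18, 12, 9 and 17 reads to 2, 2, 3 and 7 (-1.70, SE 0.54, adjusted p = 0.031). That call was lost without any 1 of female gel 1, 2 and 4 and female plastic 1, 2 and 3 (adjusted p = 0.0521 to 0.0852). It was also lost without the filter (adjusted p = 0.0533). KCNS3, a silent subunit that modifies delayed rectifiers, rose in male cells from 5, 0, 3 and 1 reads to 6, 12, 6 and 14 (2.14, SE 0.66, adjusted p = 0.0244), and this was lost without male gel 4, male plastic 2 or male plastic 4 (adjusted p = 0.0588 to 0.0695). KCNN1, a small-conductance channel, was not called in female cells (-1.79) but passed without male gel 2 (adjusted p = 0.0337) or female gel 3 (-2.07, adjusted p = 0.0486), and KCNH3, a neuronal relative of KCNH2, passed there without male gel 2 (-1.43, adjusted p = 0.0265).

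No tested member was called by edgeR between the sexes on gel or on plastic, where 0.103% and 0.124% of tested genes were called. At an unadjusted p under 0.05 there were 3 members on gel and 1 on plastic, and DESeq2 and limma-voom called 0 on both surfaces. The surface change differed between the sexes for 0 of 56 members by each of these tools, with 2 at an unadjusted p under 0.05, and for 0 of all tested genes (0% called). With the replicate as a block the count was again 0 of 56, with 4 at an unadjusted p under 0.05. These were KCNRG (female minus male surface change 0.58, SE 0.20, unadjusted p = 0.0117), KCNT2 (0.65, SE 0.22, unadjusted p = 0.0122), KCNJ2 (0.55, SE 0.19, unadjusted p = 0.0161) and KCNS3 (-2.09, SE 0.87, unadjusted p = 0.0328), each at an adjusted p = 0.611 by edgeR. KCNS3 was nearest to a sex difference on gel, where female libraries held 33, 7, 12 and 16 reads against the 5, 0, 3 and 1 of male libraries (log2 difference 2.69, unadjusted p = 0.000615, adjusted p = 0.406). It was the 1 member whose sexes did not overlap on gel, beside 2.03% of all tested genes, and no tested member had sexes apart on plastic, beside 2.85%.

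Genes that work with these channels were read from 6 lists, whose counts stand beside 12.9% of all tested genes called higher and 12.9% lower in male cells and 12.7% and 11.3% in female cells. Of 21 tested calcium sensors and effectors, 12 were higher and 2 lower on plastic in male cells and 9 and 3 in female cells, with a median log2 change of 0.45 and 0.32. CAMK2G and CAMK2D, subunits of the calmodulin kinase, rose by 0.77 (SE 0.12) and 0.64 (SE 0.11) in male cells. NFATC2 and NFATC1, transcription factors switched on by calcium through calcineurin, had -2.06 (SE 0.21, adjusted p = 3.82e-06) and -0.80 (SE 0.17). Of 19 tested store release and refill genes, 7 were higher and 2 lower in male and 6 and 4 in female cells. JPH2, which ties the store membrane to the cell surface, rose from 29.9 to 137 CPM in male cells (2.19, SE 0.23, adjusted p = 5.67e-06), CASQ2 rose by 4.48 (SE 0.62) and the release channel gene ITPR1 by 0.93 (SE 0.14).

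Of 13 tested calcium pumps and exchangers, 3 were higher and 0 lower in male cells and 2 and 0 in female cells, where 25.8% and 23.9% of all tested genes were called in either direction. The surface pump gene ATP2B4 was among them (0.77, SE 0.11, in male cells). Of 10 sodium-potassium pump and carrier genes, 2 were higher and 1 lower in male cells and 3 and 2 in female cells. In male cells, 3 of 13 and 3 of 10 called lie near the share of all tested genes and say nothing particular about these lists. Of 23 other cation channel genes, 7 were higher and 1 lower in male and 6 and 2 in female cells. TRPM4, a calcium-activated cation channel that depolarizes cells, rose from 8.98 to 31.3 CPM in male cells (1.79, SE 0.26, adjusted p = 7.93e-05), and the polycystin gene PKD1 by 1.60 (SE 0.28). Of 15 tested channel regulators outside the rule, 4 were higher and 3 lower in male and 5 and 3 in female cells. GEM and REM1, small GTP-binding proteins that inhibit calcium channels by binding beta subunits, rose by 1.49 (SE 0.19) and 1.17 (SE 0.31) in male cells. RRAD, on the same list, was not called and had -0.69 (SE 0.27, adjusted p = 0.0698) in male and -0.75 (SE 0.27, adjusted p = 0.0515) in female cells. NEDD4L, a ubiquitin ligase that removes channels from the surface, had -1.48 (SE 0.17) in male cells.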

How the data were processed

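PolyA RNA was made into libraries with a KAPA mRNA kit, per the labels. The authors deposited raw counts per gene, whole numbers that were used unchanged. The submitters' processing notes name Sscrofa11.1 as the genome build and list HISAT2 2.1.0, Trimmomatic 0.36, featureCounts, FastQC 0.11.5 and SAMtools 1.3.1 as tools. The strand setting is not given in the sources used here, so sense and antisense reads cannot be told apart; 11 of the 36 well measured members overlap another gene model. The 24 entries without a gene name (0.169% of counts) were left out, and the other 29552 matched RefSeq symbols of Sscrofa11.1, the source of coordinates.

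The 14530 genes that passed filterByExpr were tested by edgeR (version 4.0.16, under R 4.3.3) with its quasi-likelihood test, fitting 4 group means to 16 libraries (TMM scaling, 12 residual degrees of freedom). A call is a Benjamini-Hochberg adjusted p under 0.05 over all of them. SE is the absolute log2 change divided by the square root of F. Alternatives were RLE, DESeq2 1.42.0, limma-voom 3.58.1, other filters, fits of 8 libraries, the replicate as a block and left-out libraries. The script was tested on simulated data of 14530 genes. In male cells, 33 of 36 genes of at least 1 CPM lowered by 2 on the log2 scale were called (91.7%). Of those raised by 1, 35 of 46 were called (76.1%). Over all tested genes, 80% of those lowered by 2 were called. The simulated libraries were independent and few genes were changed, unlike these data, so the shares do not give the power reached here. The counts limit the precision of rarely read members: 3 reads, the limit that 0 reads allow, are 0.0078 CPM over the 384.8 M reads of all libraries, for counting error only.

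Same-numbered gel and plastic libraries of a sex deviated together from their group means (r = 0.126 to 0.489 in 8 pairs). Differently numbered libraries of a sex had r = -0.344 to 0.254, so the ranges overlap. Each of the 16 libraries correlated best with its own number on the other surface, and the pairing rests on this check. The series text gives 4 male and 4 female biological replicates for the 16 samples, but no label ties a number on gel to the same animal on plastic. Replicates were not copies (chi-square per degree of freedom 9.93 to 81.9 over 24 pairs). Members with a mean of at least 1 CPM are named, and those called are given by library; a few genes are not reported here, though counts over the class include them. The members, lists and tests were chosen with earlier results of these data known. No sequence is printed. The plots used matplotlib 3.10.9 (Python 3.11.15).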

Additional observations from a re-analysis of the deposited data

Results flagged for a closer look

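Among 34 well measured members, 12 of 136 groups of 4 libraries held 1 library far from the other 3 (gap over range above Dixon's 95% critical value), where chance flags about 1 in 20, or 6.8. Female replicate 4 was the high library for KCNMA1 on gel (79.3 CPM, next 38.3) and on plastic (46.4, next 31.5), for CACNA2D4 on gel (48.5, next 39) and, on plastic, for CACNA2D1 (239, next 147) and CACNG7 (41.4, next 26.3). Male plastic 4 was high for KCNN3 (3.001 CPM, next 1.16) and CACNA2D1 (170.5, next 141), and male gel 4 was low for ABCC9 (2.96, next 10.2). Female gel 1 was high for KCNN4 (2.38 CPM, next 1.63). Female plastic 2 was high for ABCC9 (3.27 CPM, next 1.42) and low for CACNB2 (1.59, next 2.26). Male plastic 2 was high for KCND1 (3.81 CPM, next 2.61). What sets these libraries apart was not tested.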

How the results depend on the processing

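Of 30 calls of a tested member in 1 sex, 19 held under every alternative run, 11 were lost without some single library or by another setting, and 0 changed sign. Of 82 results not called, 14 passed under some alternative, and the sign of 38 turned under some alternative without a call in either fit. The count of members lower in female cells was 8 and became 5 without the filter and 5 without male 4, female 1 and female 4 (2 female cultures left per surface). Without these cultures 11 members were higher in female cells, against 7, and 1968 of all genes were called in female cells in either direction, against 3476. Over single left-out libraries the count of members lower in female cells ran from 5 to 10, with 5 without female gel 2 and without female plastic 3. For these settings all genes were counted in either direction only. The member counts by direction therefore have no matching share and say nothing particular about the members. With the replicate as a block 12 members were higher and 8 lower in male cells and 10 and 8 in female cells (35.7% and 32.1% of 56, where 29.7% and 27.6% of all tested genes were called). Besides the calls given with it above (CACNA1C, CACNA1H, CACNA2D1, CACNG4, KCNMB4, KCNRG and KCNT2), it changed no call of a tested member. RLE scaling moved the median change of all genes from -0.03 to -0.02 in male and from -0.04 to -0.01 in female cells. The causes of these changes were not tested. Comparisons of the sexes on 1 surface cannot carry the block, since each culture has 1 sex; the difference of surface changes can, and 0 members were called.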

Other observations

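Some members that were too rarely read to be tested differed in reads between surfaces. They were picked after their values were seen and are given as raw reads with no test. KCNJ3, a subunit of the G protein-gated inward rectifier of the atrium, had 8, 17, 30 and 6 reads in male gel and 0, 7, 3 and 0 in male plastic, and 6, 8, 14 and 7 in female gel against 0, 2, 1 and 0 in female plastic. KCNC1, a fast delayed rectifier gene related to KCNC2, had 2, 1, 2 and 0 reads in female gel and 8, 14, 12 and 8 in female plastic, but 6, 0, 4 and 0 in male gel and 5, 3, 6 and 8 in male plastic. KCNMB1, the smooth muscle beta subunit of the BK channel, had 2, 0, 4 and 2 reads in male gel and 12, 3, 7 and 1 in male plastic, and 0 in each female gel library against 1, 9, 17 and 3 in female plastic. KCNJ16, an inward rectifier gene best known from kidney, lies 12540 bp from KCNJ2 on chromosome 12 and had 21, 0, 8 and 28 reads in male gel against 2, 0, 3 and 1 in male plastic. In female cells KCNJ16 had 9, 6, 6 and 26 reads on gel and 9, 1, 6 and 3 on plastic.

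No read fell on KCNJ1, KCNJ10, KCNE2, KCNMB2, KCNK16, KCNK17, KCNK18, CACNG2, CACNG3, KCNA10 or KCND2 in any of the 16 libraries.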
